A study of Mus musculus with 6 samples.

Results

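The genes described here code for matrix metalloproteinases (Mmp), ADAM proteases (Adam), ADAMTS proteases and their protease-free relatives (Adamts, Adamtsl), and the tissue inhibitors of metalloproteinases (Timp). The families, and the gene lists used below, were chosen with earlier results of these data known. Within the families, every gene of the deposited table was taken by its symbol alone. The genes number 51 of the 15423 genes listed. Among them are 11 Mmp, 3 Timp, 14 Adam, 18 Adamts and 5 Adamtsl genes, and all 51 had enough counts to be tested. RNA-seq was carried out on the hippocampi of 3 control (CTR) mice and 3 short day (SD) mice, all of the C57BL/6J strain. CTR mice lived in a light/dark cycle of 12 h/12 h. SD mice were conceived, born and raised to postnatal day 42 in an 8 h/8 h cycle, to which their parents had been moved before mating. Both groups had been kept with free access to food and water, and the sources used here do not give the age of the CTR mice. The labels number the mice 1, 2 and 5 in CTR and 2, 5 and 6 in SD, and no genetic change or drug separates the groups.

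The cutoffs used by the study, an unadjusted p no greater than 0.05 together with a log2 fold change of 0.58 or more in either direction, were applied. With them, edgeR called 3 of the 51 genes higher in SD mice, beside 2.1% of all genes tested, and 1 lower, beside 0.88%. With DESeq2, the tool of the study, 1 was called higher (Mmp2) and 1 lower (Adamts15), beside 316 of 15423 genes called in either direction. The count of genes called higher was also 1 without SD mouse 5, without SD mouse 6 and with the replicate number as a block. In either direction, each of these fits called 2 of the 51. Over all genes tested they called 369 of 15360, 242 of 15353 and 315 of 15345, in that order. The genes that edgeR called higher were Mmp2, which codes for gelatinase A, Adamts18, a secreted protease, and Adam5, which is best known from sperm. Adamts15, which codes for a protease of proteoglycans, was called lower. None of the 51 genes reached an adjusted p under 0.05, so each call below is a difference in these 6 mice at the unadjusted cutoff.

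Metalloproteinases hold a zinc ion in their active site and cut proteins outside the cell or at its surface. Matrix metalloproteinases cut collagens, laminins and other proteins of the extracellular matrix. Some of them are secreted and others stay anchored in the membrane. Most are made as inactive precursors. ADAM proteases sit in the membrane and shed the outer parts of growth factors, receptors and adhesion proteins, while several ADAMs have lost the protease activity and serve as receptors. ADAMTS proteases are secreted and bind to the matrix, where several of them cut aggrecan, versican and brevican, the large proteoglycans that fill the matrix between neurons and form the nets around some of them. TIMPs bind the active site of these enzymes and block it. In the hippocampus, proteases of these families are known for their part in the remodelling of synapses, in the shedding of the amyloid precursor protein and in the turnover of perineuronal nets.

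The active site itself can be read from the coding sequence. A run of 11 codons carries the 3 histidines that hold the zinc ion and the glutamate that takes part in the cut, and it is shown for the genes on which the results turn. The runs were read from GENCODE transcripts of GRCm38, the build of the authors' mm10 mapping, on the coding strand from 5′ to 3′, and the capitals mark the codons of the 3 histidines and the glutamate.
Mmp2: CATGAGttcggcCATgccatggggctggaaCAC
Mmp9: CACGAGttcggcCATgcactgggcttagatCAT
Mmp15: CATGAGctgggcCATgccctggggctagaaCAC
Adam12: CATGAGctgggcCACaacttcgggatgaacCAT
Adamts18: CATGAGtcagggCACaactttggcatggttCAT
Adamts5: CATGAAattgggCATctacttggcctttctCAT
Adamts1: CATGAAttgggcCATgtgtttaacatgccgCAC
Adamts15: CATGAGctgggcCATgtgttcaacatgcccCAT
The capitals stand at the same places in all of these runs, although the bases between them differ. In the first 6 runs the eighth codon, ggg or ggc, is one for glycine, and in Adamts1 and Adamts15 it is aac, which codes for asparagine. The motif was found in the longest reading frame of 38 of the 51 genes, namely all 11 Mmp genes, all 18 Adamts genes, the 8 ADAMs that act as sheddases and Adam1a. The other 13 were the 3 Timp genes, the 5 Adamtsl genes, the receptors Adam11, Adam22 and Adam23, and the testis genes Adam5 and Adam18. Of the 38, the eighth codon was one for glycine in 32, for asparagine in 5 (Adamts1, Adamts4, Adamts9, Adamts15 and Adamts20) and for serine in Adamts8. Those 6 exceptions were all among the 7 proteoglycan-cleaving ADAMTS genes, of which Adamts5 was the other one.

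The libraries held between 23300710 and 34447082 counts per mouse. CTR mouse 5 had 30044 counts of Xist and 10 of the Y-linked Ddx3y, whereas the other 5 mice had at most 20 counts of Xist and at least 1652 of Ddx3y, so that 1 CTR library is of a female and the others are of males. The extraction protocol in the labels speaks of cells and spheroids, while the methods of the study describe dissected hippocampi. Markers of hippocampal principal neurons (10 genes) summed to between 996 and 1065 CPM in all 6 mice, where CPM is the usual depth-scaled count of a gene, here with TMM factors. Markers of the choroid plexus (15 genes, led by Ttr and Enpp2) varied far more, from 426 CPM in CTR mouse 2 to 11397 CPM in SD mouse 5. Of these markers edgeR called 14 higher in SD mice, while 6 passed the p cutoff in DESeq2 and the groups did not overlap for 2. In bulk tissue, a larger number of cells of a type and more RNA per cell cannot be told apart.

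Over all 15345 genes tested, edgeR called 457 genes at both cutoffs, which is 2.98% of them. Of the 51 genes, the 4 called make up 7.84%. With the p cutoff alone, 9 of the 51 passed (17.6%), beside 8.32% of all genes tested, and 7 of them were higher in SD mice and 2 lower. The levels of the groups did not overlap for 9 of the 51 genes, beside 12.3% of all genes tested. In 6 of these the SD mice lay above the CTR mice (Adamts1, Mmp15, Mmp2, Adam12, Adamts18 and Adam5), and in 3 below (Adamts15, Adam23 and Adamts16). The median log2 fold change was 0.011 over the 51 genes and 0.0015 over all genes tested, and 28 of the 51 had a positive value and 23 a negative one. No gene of the whole table had an adjusted p under 0.05 in edgeR. With DESeq2, 56 genes of the whole table had an adjusted p under 0.05, and none of the 51 was among them. Of the 51, 6 had an unadjusted p of at most 0.05 in DESeq2. The share over all genes at that unadjusted cutoff was not counted for DESeq2.

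**Figure D1:**
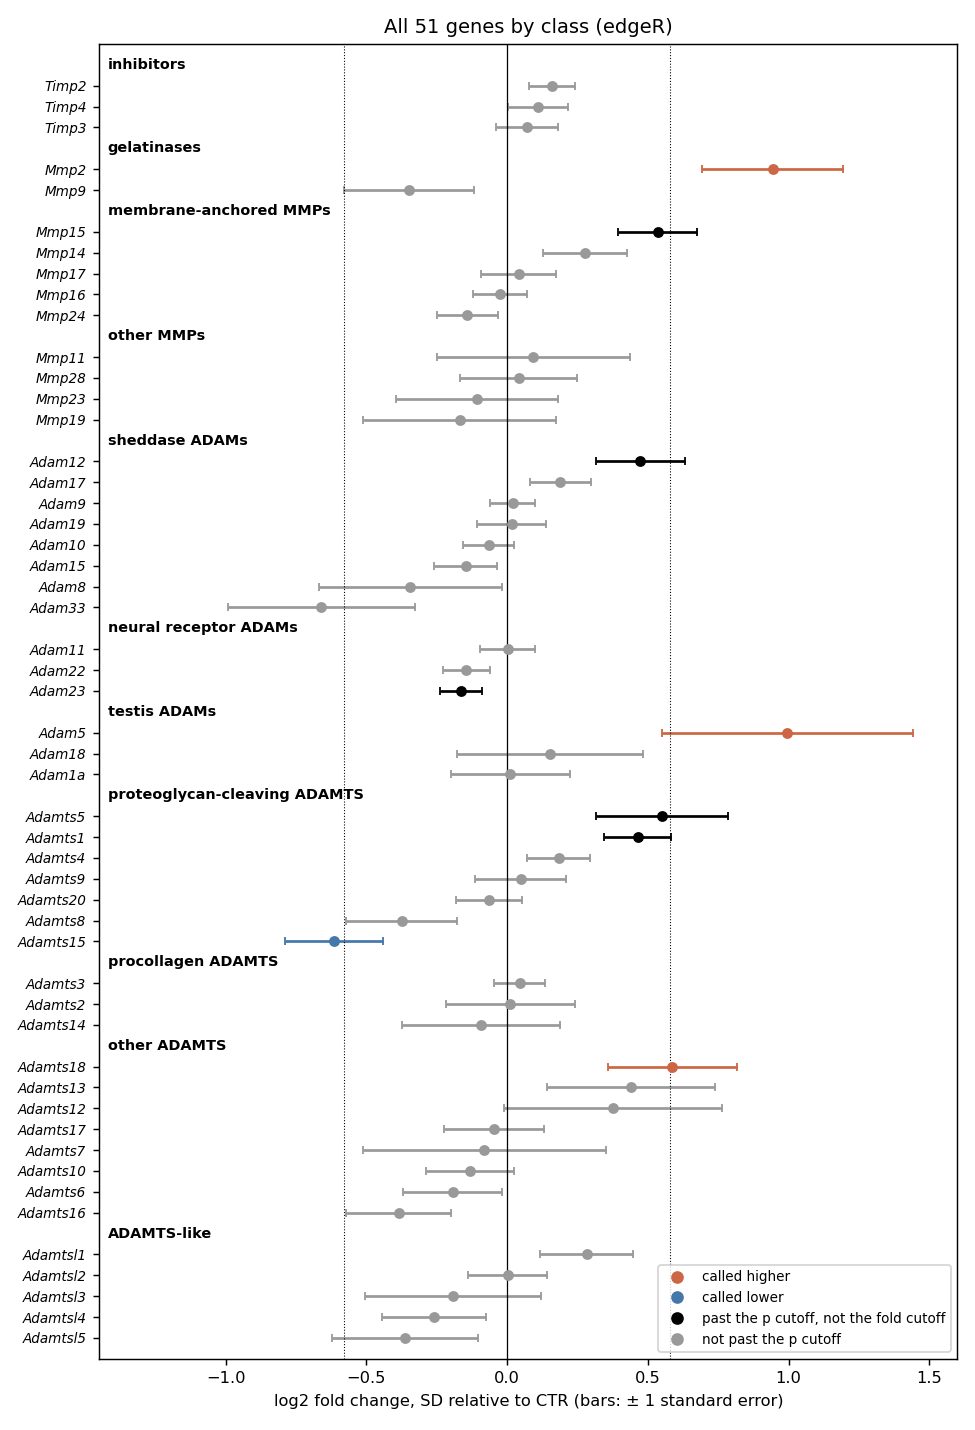
Log2 fold change of each of the 51 genes, SD relative to CTR, by class of protease, with bars of 1 standard error from edgeR and dotted lines at the fold cutoff of 0.58 in either direction. The genes called higher are Mmp2 (0.94), Adam5 (0.99) and Adamts18 (0.59), Adamts15 (-0.61) is called lower, and most of the other points lie close to 0.

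Before the comparison, the levels of the genes were set in order. Levels between genes are compared per length, as CPM per kb of exon. Timp2, the inhibitor that is also needed for the activation of the Mmp2 precursor, had the highest level per length in all 6 mice, from 90.7 to 113, with a mean of 102.6 that exceeded the level of 98.1% of the genes tested. It was followed by Adam11, a receptor without protease activity, with a mean of 37.6 CPM per kb, and by Mmp17, a protease tied to the membrane by a lipid anchor, with 36.1. These neighbours did not differ beyond their spread, as Adam11 ranged from 33.9 to 42.6 and Mmp17 from 28.8 to 42.1. The next were Adam10 (24.2), which sheds the amyloid precursor protein and N-cadherin, Timp3 (19.0), an inhibitor that binds to the matrix, Adam9 (17.7), Adam22 (16.5), the receptor of the secreted protein Lgi1, Adam15 (14.3), Mmp24 (12.9), a membrane-anchored protease of neurons, and Adamts4 (11.7). None of these 10 genes of highest level passed the p cutoff.

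The summed level per length of all 51 genes lay between 337 and 377 CPM per kb in the 6 mice. Inhibitors took 33.4% to 38.6% of it, sheddase ADAMs 17.0% to 19.2%, neural receptor ADAMs 16.3% to 18.8% and membrane-anchored Mmp genes 14.8% to 18.3%. The proteoglycan-cleaving ADAMTS genes took 5.36% to 6.46%. Mmp2 and Mmp9, the gelatinases, took 0.286% to 0.504%, so that the gene called higher with the smallest p belongs to one of the smaller classes. The genes that passed the p cutoff had low to middle levels. Adam23, Adamts1 and Mmp15 had means of 7.16, 4.57 and 4.47 CPM per kb, and the other 6 were below 1.

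**Figure D2:**
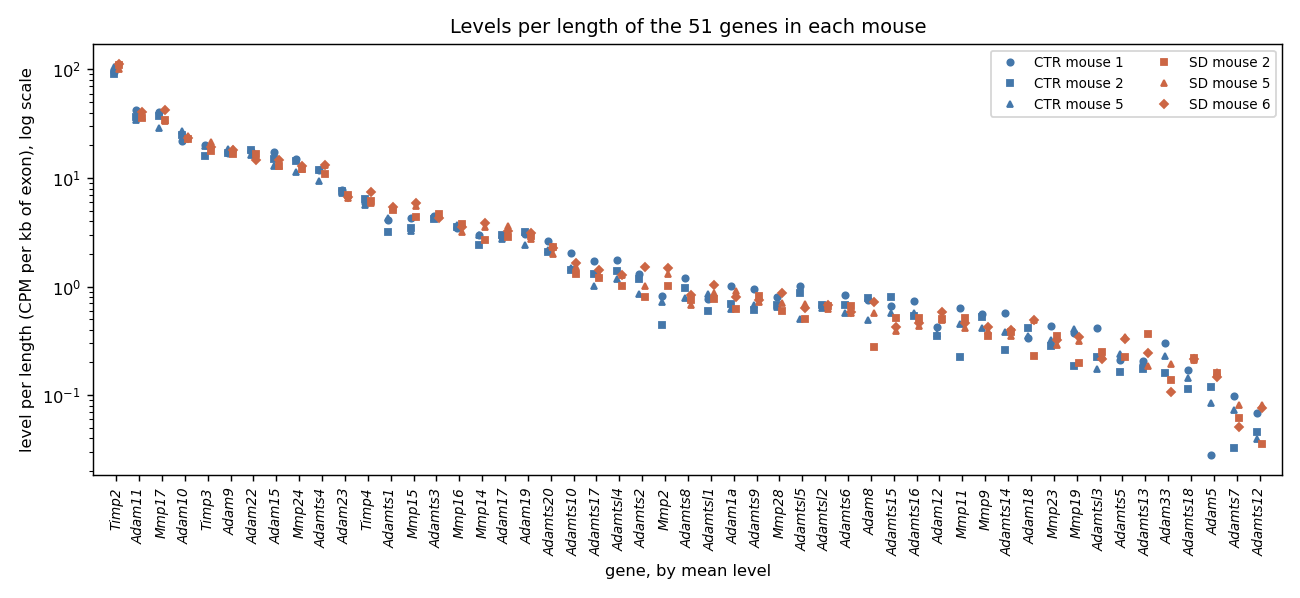
Level per length (CPM per kb of exon, log scale) of the 51 genes in each of the 6 mice, ordered by the mean. Timp2 stands above all others in every mouse at 90.7 to 113, and Adamts12 and Adamts7, with means of 0.0576 and 0.0662, stand at the low end.

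Mmp2 (chr8:92827290-92853421, RefSeq annotation of GRCm38.p6) codes for gelatinase A, which cuts type IV collagen and denatured collagens. Its level was 2.76, 1.48 and 2.43 CPM in CTR mice 1, 2 and 5 and 3.42, 4.43 and 4.98 CPM in SD mice 2, 5 and 6. Every SD mouse lay above every CTR mouse. The means were 2.23 ± 0.662 CPM in CTR and 4.28 ± 0.793 CPM in SD (mean ± standard deviation over 3 mice, as for all pairs of means here), a ratio of 1.92. In edgeR the log2 fold change was 0.94 with a standard error of 0.25, an unadjusted p of 0.0036 and an adjusted p of 0.51. The counts behind these levels were 63, 36 and 74 in CTR mice and 88, 131 and 172 in SD mice. Mmp2 was called higher under every alternative that was run, with log2 fold changes of 0.73 without CTR mouse 2 to 1.11 without CTR mouse 1. The lowest Mmp2 level was in CTR mouse 2, which also had the lowest choroid plexus sum, and the highest levels were in SD mice 5 and 6, which had the highest sums (11397 and 11287 CPM). In contrast, SD mouse 2 had a lower sum than CTR mouse 5 (4057 against 4738 CPM) but a higher Mmp2 level, so that the sums overlapped between the groups. The part of the choroid plexus in the Mmp2 difference was not tested. Markers of leptomeningeal fibroblasts (12 genes) and of endothelial and mural cells (14 genes) had no gene past the p cutoff. The fibroblast sums also overlapped, at 143 to 239 CPM in CTR mice and 174 to 206 CPM in SD mice, and the lowest was again in CTR mouse 2. The part of these cells in the Mmp2 difference was not tested either.

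Mmp9, which codes for gelatinase B and is studied for its part in synaptic plasticity, measured 1.97, 1.86 and 1.48 CPM in CTR mice and 1.24, 1.39 and 1.51 CPM in SD mice. SD mouse 6 lay above CTR mouse 5, so the groups overlapped. The log2 fold change was -0.35 with a standard error of 0.23 and an unadjusted p of 0.16 in edgeR. Per length, the ratio of Mmp2 to Mmp9 was 1.47, 0.840 and 1.73 in CTR mice and 2.89, 3.35 and 3.47 in SD mice, a comparison picked after the values of both genes had been seen and given without a test. Mmp2 was below Mmp9 in CTR mouse 2 alone and above it in the other 5 mice.

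The 3 inhibitors had small positive log2 fold changes that did not pass the cutoff. Timp2 (chr11:118301061-118355411) measured 372, 353 and 408 CPM in CTR mice and 429, 395 and 441 CPM in SD mice. Only SD mouse 5 fell within the range of the CTR mice, and the log2 fold change was 0.16 with a standard error of 0.08 (unadjusted p 0.083, edgeR). Timp3 ranged from 129 to 162 CPM in CTR mice and from 144 to 175 CPM in SD mice (log2 fold change 0.07, standard error 0.11). Timp4, which in the brain is known from astrocytes, ranged from 33.1 to 38.0 CPM and from 34.8 to 43.4 CPM (0.11, standard error 0.11). Timp3 lies within Syn3 and Timp4 within Syn2, both on the opposite strand, and the authors counted by strand. The ratio of Timp2 to Mmp2 per length was 117, 206 and 145 in CTR mice and 109, 77.1 and 76.6 in SD mice. It was lower in every SD mouse than in any CTR mouse, and it too was picked after the values had been seen. The ratio of Timp2 to Mmp14, whose protein activates the Mmp2 precursor together with Timp2, overlapped between the groups, at 32.1 to 37.7 and 28.8 to 40.9.

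Among the 5 membrane-anchored Mmp genes, Mmp15 passed the p cutoff and the other 4 did not. Mmp15 (chr8:95352296-95374293), a protease with a transmembrane anchor, measured 23.1, 18.7 and 17.4 CPM in CTR mice and 23.8, 30.1 and 31.6 CPM in SD mice. The groups were separated by the small gap between CTR mouse 1 and SD mouse 2, while SD mice 5 and 6 stood well above all CTR mice. The means were 19.7 ± 2.99 CPM and 28.5 ± 4.13 CPM, and in edgeR the log2 fold change was 0.54 with a standard error of 0.14 (unadjusted p 0.0033, adjusted p 0.51). This lies just under the fold cutoff, and Mmp15 passed both cutoffs without CTR mouse 1 (0.66) and without SD mouse 2 (0.65). SD mice 5 and 6 were again the mice with the highest choroid plexus sums and also with the highest oligodendrocyte sums (10732 and 11076 CPM, against 7170 to 9317 CPM in CTR mice). In contrast, CTR mouse 5 had the highest choroid plexus sum of the CTR mice (4738 CPM) but the lowest Mmp15 level. CTR mouse 2 had a higher oligodendrocyte sum than SD mouse 2 (9317 against 9154 CPM) but a lower Mmp15 level. The part of either cell type in the Mmp15 difference was not tested.

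Mmp14, the best known activator of Mmp2, measured 17.7, 14.4 and 17.7 CPM in CTR mice and 16.1, 21.0 and 23.2 CPM in SD mice. SD mouse 2 fell within the CTR range, and the log2 fold change was 0.28 with a standard error of 0.15 (unadjusted p 0.092, edgeR). Mmp24, which cuts N-cadherin in neurons, measured 70.7, 66.9 and 53.2 CPM in CTR mice and 56.2, 56.3 and 60.1 CPM in SD mice (-0.14, standard error 0.11). All 3 SD mice were inside the CTR range. Mmp17 ranged from 191 to 268 CPM in CTR mice and from 220 to 279 CPM in SD mice (0.04, standard error 0.13), and Mmp16, a protease with a transmembrane anchor, from 30.3 to 31.9 CPM and from 27.4 to 32.7 CPM (-0.03, standard error 0.10).

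The 4 remaining Mmp genes were scarce and none passed the p cutoff. Mmp11, a stromelysin-like protease, measured 0.619 to 1.75 CPM in CTR mice and 1.15 to 1.44 CPM in SD mice (log2 fold change 0.09, standard error 0.34). Mmp19 ranged from 0.66 to 1.45 CPM and from 0.699 to 1.22 CPM (-0.17, standard error 0.34), Mmp23 from 0.66 to 1.01 CPM and from 0.677 to 0.815 CPM (-0.11, standard error 0.29), and Mmp28, also called epilysin, from 2.53 to 3.11 CPM and from 2.33 to 3.36 CPM (0.04, standard error 0.21). The standard errors of Mmp11, Mmp19 and Mmp23 were wide, 0.29 to 0.34, beside 0.14 for Mmp15.

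The proteoglycan-cleaving ADAMTS genes held 3 of the 9 genes that passed the p cutoff, and these went in both directions. They were 42.9% of the 7 genes of the class, beside 8.32% of all genes tested, and the class was not tested as a set. Adamts1 (chr16:85793827-85803113), which cuts aggrecan and versican, measured 21.7, 16.8 and 22.5 CPM in CTR mice and 27.2, 28.1 and 28.9 CPM in SD mice. The SD mice lay close together and above all CTR mice. The means were 20.3 ± 3.06 CPM and 28.1 ± 0.889 CPM, and in edgeR the log2 fold change of 0.46, with a standard error of 0.12, had the smallest p of the 51 genes (unadjusted p 0.0029, adjusted p 0.51). Without CTR mouse 2 the log2 fold change was 0.34 and still passed the p cutoff, as it did under each of the 11 alternatives.

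Adamts15 (chr9:30899155-30922452), known to cut versican, measured 6.88, 8.25 and 5.94 CPM in CTR mice and 5.28, 4.06 and 4.43 CPM in SD mice. Every SD mouse lay below every CTR mouse. The means were 7.02 ± 1.16 CPM and 4.59 ± 0.624 CPM, and in edgeR the log2 fold change was -0.61 with a standard error of 0.17 (unadjusted p 0.0054, adjusted p 0.51). Behind these levels stood 157, 200 and 181 counts in CTR mice and 136, 120 and 153 counts in SD mice. Adamts15 passed the p cutoff under all 11 alternatives, but its log2 fold change was inside the fold cutoff without CTR mouse 2 (-0.48) and without SD mouse 5 (-0.53). CTR mouse 2 had the highest Adamts15 level and also the highest sum of thalamic markers (438 CPM, against 195 to 323 CPM in the other mice), of which edgeR called 9 of 12 lower in SD mice and 6 passed the p cutoff in DESeq2. SD mouse 6 had the lowest thalamic sum but not the lowest Adamts15 level, and the part of thalamic tissue in the difference was not tested.

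Adamts5 (chr16:85858157-85901125), a strong aggrecanase, measured 2.28, 1.77 and 2.56 CPM in CTR mice and 2.41, 3.69 and 3.59 CPM in SD mice. SD mouse 2 lay within the CTR range. In edgeR the log2 fold change was 0.55 with a standard error of 0.23 (unadjusted p 0.041, adjusted p 0.58). It did not pass the p cutoff in DESeq2 (unadjusted p 0.059), with the replicate block (log2 fold change 0.49) nor without CTR mouse 1 (log2 fold change 0.57), CTR mouse 2 (0.42), SD mouse 5 (0.45) or SD mouse 6 (0.46). Adamts1 and Adamts5 lie close together on chromosome 16, and both had higher means in SD mice.

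Of the 4 other genes of this class, Adamts8 ranged from 3.61 to 5.52 CPM in CTR mice and from 3.15 to 3.82 CPM in SD mice (log2 fold change -0.38, standard error 0.20, unadjusted p 0.085 in edgeR). Adamts8 lies close to Adamts15 on chromosome 9. Adamts4, which cuts brevican and in the brain is known from oligodendrocytes, measured 56.6, 56.4 and 45.3 CPM in CTR mice and 52.5, 63.5 and 63.4 CPM in SD mice (0.18, standard error 0.11, unadjusted p 0.14 in edgeR). SD mouse 2 lay within the CTR range. Beside it, 9 of the 10 oligodendrocyte markers passed the p cutoff as higher in SD mice, with a median log2 fold change of 0.43. Adamts9 and Adamts20 had log2 fold changes of 0.05 and -0.06.

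**Figure D3:**
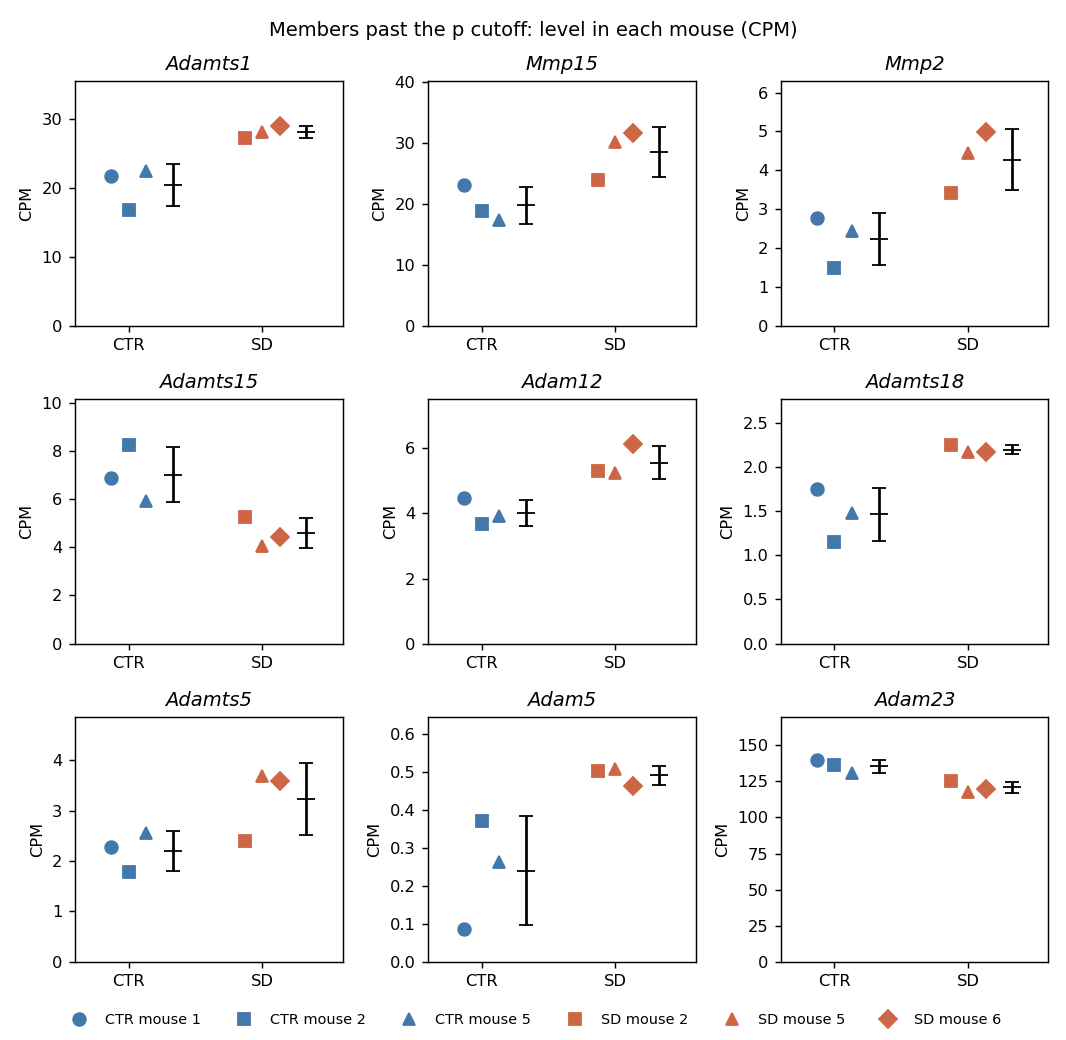
Level in CPM of the 9 genes that passed the p cutoff, 1 point per mouse, with bars for the mean ± standard deviation of 3 mice beside each group; all axes start at 0. SD mice lie above CTR mice without overlap for Adamts1, Mmp15, Mmp2, Adam12, Adamts18 and Adam5, below them for Adamts15 and Adam23, and the groups overlap for Adamts5.

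Adamts18 (chr8:113697123-113849343), a secreted protease known from human disorders of the eye, was the called gene among the 8 other ADAMTS genes. Its level was 1.75, 1.15 and 1.48 CPM in CTR mice and 2.25, 2.17 and 2.17 CPM in SD mice. The SD mice were nearly alike and above all CTR mice. The means were 1.46 ± 0.299 CPM and 2.20 ± 0.0478 CPM, and in edgeR the log2 fold change was 0.59 with a standard error of 0.23 (unadjusted p 0.028, adjusted p 0.56). Counts were between 28 and 75 per mouse. The p cutoff was missed in DESeq2 (unadjusted p 0.068), without CTR mouse 2 (log2 fold change 0.45) and without SD mouse 2 (0.57), SD mouse 5 (0.60) or SD mouse 6 (0.59), and with the replicate block (0.75).

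Adamts16 measured 5.04, 3.67 and 3.88 CPM in CTR mice and 3.49, 2.94 and 3.18 CPM in SD mice. All SD mice lay below all CTR mice, yet the p cutoff was not passed (log2 fold change -0.39, standard error 0.19, unadjusted p 0.066 in edgeR). Adamts13, which cuts von Willebrand factor, had a log2 fold change of 0.44 with a standard error of 0.30, and its highest level, 1.79 CPM, was in SD mouse 2. The log2 fold changes of Adamts6, Adamts7, Adamts10, Adamts12 and Adamts17 were between -0.19 and 0.38, with unadjusted p-values of 0.30 (Adamts6) and above in edgeR.

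The ADAMTS proteases that process procollagen showed no difference past the cutoff. Adamts3 had a narrow range, 22.7 to 24.4 CPM in CTR mice and 23.3 to 25.2 CPM in SD mice (log2 fold change 0.05, standard error 0.09). Adamts2 and Adamts14 had log2 fold changes of 0.01 and -0.09, with standard errors of 0.23 and 0.28. The 5 Adamtsl genes, whose proteins resemble ADAMTS proteases but lack the protease domain, had log2 fold changes from -0.36 (Adamtsl5) to 0.28 (Adamtsl1), and none passed the p cutoff. Adamtsl5 passed both cutoffs only when CTR mouse 5 was left out (-0.61), and Adamtsl2 was nearly level, at 4.97 to 5.44 CPM over all 6 mice.

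Adam12 (chr7:133883199-134225097), which sheds ligands of the epidermal growth factor receptor, was the sheddase that passed the p cutoff, out of 8. It measured 4.47, 3.67 and 3.91 CPM in CTR mice and 5.32, 5.24 and 6.14 CPM in SD mice. The groups did not overlap. The means were 4.02 ± 0.410 CPM and 5.57 ± 0.495 CPM, and in edgeR the log2 fold change was 0.47 with a standard error of 0.16 (unadjusted p 0.014, adjusted p 0.55), under the fold cutoff. It no longer passed the p cutoff without SD mouse 6 (0.39) or with the replicate block (0.48).

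The main sheddases of the brain were close to level. Adam10 measured 108, 123 and 134 CPM in CTR mice and 113, 120 and 116 CPM in SD mice, with all SD mice inside the CTR range (log2 fold change -0.07, standard error 0.09, unadjusted p 0.49 in edgeR). Adam17, which sheds tumour necrosis factor, ranged from 19.8 to 21.2 CPM in CTR mice and from 20.6 to 26.1 CPM in SD mice (0.19, standard error 0.11, unadjusted p 0.11 in edgeR). Adam9 ranged from 69.6 to 76.5 CPM and from 68.2 to 76.1 CPM (0.02, standard error 0.08), Adam15 from 78.6 to 107 CPM and from 79.4 to 90.9 CPM (-0.15, standard error 0.11), and Adam19 from 17.1 to 22.6 CPM and from 19.3 to 22.1 CPM (0.02, standard error 0.12).

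Adam33, a protease linked to asthma in humans, had the largest negative log2 fold change of the 51 genes (-0.66), but its standard error was 0.33 and it did not pass the p cutoff (unadjusted p 0.074 in edgeR). It measured 1.62, 0.866 and 1.25 CPM in CTR mice and 0.737, 1.05 and 0.579 CPM in SD mice. SD mouse 5 lay above CTR mouse 2. Adam33 passed both cutoffs without CTR mouse 2 (-0.86) or without SD mouse 5 (-0.92). Adam8, known from microglia and leukocytes, ranged from 2.30 to 3.67 CPM in CTR mice and from 1.28 to 3.36 CPM in SD mice (-0.34, standard error 0.33), beside microglial markers of which 0 of 12 passed the p cutoff.

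Adam11, Adam22 and Adam23 code for receptors of neurons that bind the secreted LGI proteins and have no protease activity. Adam23 (chr1:63445717-63596111) measured 139, 137 and 131 CPM in CTR mice and 125, 118 and 119 CPM in SD mice. Every SD mouse lay below every CTR mouse, by a small margin. The means were 136 ± 4.54 CPM and 121 ± 3.89 CPM, and in edgeR the log2 fold change was -0.17 with a standard error of 0.07, an unadjusted p of 0.049996 and an adjusted p of 0.60, so that this gene passed the p cutoff by the least of the 9. It no longer did without CTR mouse 1 (-0.15), CTR mouse 2 (-0.16), SD mouse 2 (-0.19), SD mouse 5 (-0.15) or SD mouse 6 (-0.16), with the replicate block (-0.14) or without a filter on low counts. Adam22 measured 255, 259 and 233 CPM in CTR mice and 241, 224 and 210 CPM in SD mice, with SD mouse 2 in the CTR range (-0.14, standard error 0.08, unadjusted p 0.11 in edgeR). Adam11 measured 192 to 242 CPM in CTR mice and 203 to 228 CPM in SD mice (0.00, standard error 0.10).

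Adam5 (chr8:24727093-24824369), known from testis and sperm, had the largest fold change of the 51 genes and nearly the lowest level. CTR mice had 2, 9 and 8 counts of it and SD mice 13, 15 and 16 counts, or 0.0876, 0.371 and 0.263 CPM and 0.505, 0.508 and 0.463 CPM. All SD mice lay above all CTR mice. The log2 fold change was 0.99 with a standard error of 0.45 (unadjusted p 0.0495, adjusted p 0.60, edgeR), and DESeq2 gave an unadjusted p of 0.16. The p cutoff was missed without CTR mouse 1 (log2 fold change 0.64), CTR mouse 5 (1.06), SD mouse 2 (0.98), SD mouse 5 (0.97) or SD mouse 6 (1.04), with the replicate block (0.69) and, by little, without a filter on low counts (0.99). The other testis genes, Adam18 and Adam1a, had log2 fold changes of 0.15 and 0.01.

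The genes were also counted by whether they carry the zinc motif. Of the 38 with it, 7 passed the p cutoff (18.4%) and 3 were called (7.89%), with a median log2 fold change of 0.011. Of the 13 without it, 2 passed the p cutoff (15.4%) and 1 was called (7.69%), with a median of 0.0019. Over all genes tested the shares were 8.32% and 2.98%, and the difference between the genes with and without the motif was not tested. RefSeq promoters of GRCm38 (from 250 bases before to 50 bases after the start) could be matched for 31 of the 51 genes, with 34 promoters in all. The E-box CACGTG, searched on both strands, was in 3 of them (8.82%; Adam10, Adam19 and Adamts17), beside 9.39% of 15416 promoters of all genes. The AP-1 site TGAGTCA was in 1 (2.94%, beside 3.69%) and the GC box GGGCGG in 25 (73.5%, beside 59.8%), and such matches describe the letters of the window and not binding.

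Because the families are made by many cell types of the brain, the marker sums were set beside the results. Hippocampal neurons, microglia, leptomeningeal fibroblasts, and endothelial and mural cells had no marker past the p cutoff, and of the astrocyte markers 1 of 10 passed. The choroid plexus sums were 2812, 426 and 4738 CPM in CTR mice and 4057, 11397 and 11287 CPM in SD mice, the markers having a median of 1.70 on the log2 scale, and 2 of the 8 ependymal markers were called higher (median 0.39). Oligodendrocyte sums were 7170 to 9317 CPM in CTR mice and 9154 to 11076 CPM in SD mice. Thalamic sums were 225 to 438 CPM and 195 to 278 CPM. Of the hypothalamic list 4 of 12 markers were measured and 3 were called higher, with sums of 4.12 to 6.80 CPM in CTR mice and 8.34 to 30.4 CPM in SD mice, the highest being in SD mouse 2. No gene of the 51 is on any of these lists, and the part of these cell types in the differences above was not tested.

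**Figure D4:**
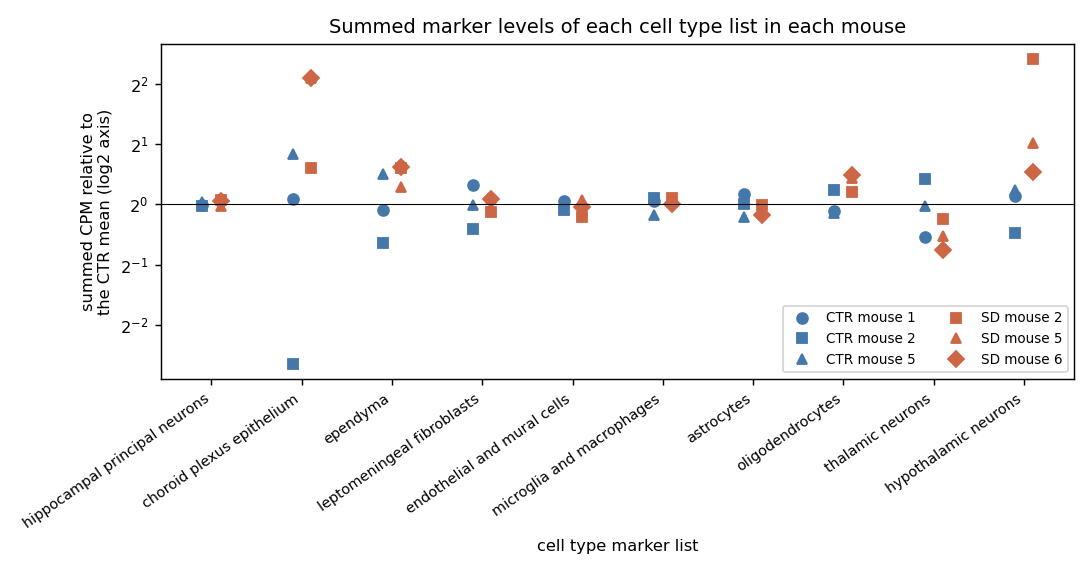
Summed CPM of each cell type marker list in each mouse, relative to the mean of the CTR mice, on a log2 axis. Sums of hippocampal neurons are nearly level, whereas the choroid plexus sum spans 426 to 11397 CPM, with CTR mouse 2 lowest and SD mice 5 and 6 highest.

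Genes whose proteins work with these proteases were taken from lists of regulators, binding partners and substrates. Of 26 regulators measured, 2 (7.69%) were called higher and 0 lower, beside 2.98% of all genes tested called in either direction. The p cutoff was passed by 5 (19.2%), all higher in SD mice, beside 8.32% of all genes tested. The median of the 26 log2 fold changes was -0.0078. Past the p cutoff but not called were Tspan15 (0.33), Tspan33 (0.47) and Bsg (0.44). The groups did not overlap for 2 of the 26, Tspan15 and Bsg, beside 12.3% of all genes tested. The called genes were Pcolce (log2 fold change 1.05) and Pcolce2 (1.11), enhancers of the cutting of procollagen. Pcolce measured 12.3, 2.47 and 7.46 CPM in CTR mice and 10.8, 17.4 and 17.6 CPM in SD mice, lowest in CTR mouse 2 and highest in SD mice 5 and 6, as the choroid plexus sums were. Between these, CTR mouse 1 lay above CTR mouse 5 and SD mouse 2 in Pcolce but below both in the sums. The part of the choroid plexus in the Pcolce difference was not tested. Of the 8 partners of the LGI receptors none was called, beside 2.98% of all genes tested. As lower, 2 (25%) passed the p cutoff, beside 8.32% of all genes tested in either direction. Lgi2, a secreted ligand of these receptors named here after its values were seen, measured 133, 143 and 92.1 CPM in CTR mice and 77.3, 103 and 79.0 CPM in SD mice, with SD mouse 5 in the CTR range (-0.51, standard error 0.16, unadjusted p 0.011 in edgeR). Kcna2, a potassium channel of axons, measured 319, 326 and 279 CPM in CTR mice and 237, 246 and 233 CPM in SD mice (-0.37, standard error 0.08, unadjusted p 0.0012 in edgeR). Kcna2 was below the CTR range in all SD mice. It was the only 1 of the 8 partners whose groups did not overlap, beside 12.3% of all genes tested. The synaptic scaffold Dlg4 had a log2 fold change of -0.01. The ligands Lgi1 and Lgi3 had log2 fold changes of 0.0016 and 0.06, and the other 6 partners had negative ones.

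For the substrates, the shares over all genes tested to read beside the edgeR counts are 8.32% past the p cutoff and 2.98% called. The share of all genes past the p cutoff was not counted for DESeq2. Of 36 matrix substrates none was called, 2 (5.56%) passed the p cutoff as lower, Fn1 (-0.40) and Lama4 (-0.51), and the median log2 fold change was 0.0081. The groups did not overlap for 3 of the 36, Lama4, Acan and Comp, all lower in SD mice, beside 12.3% of all genes tested. Acan had an unadjusted p of 0.061 in edgeR, and Comp had only 6 to 19 counts per mouse. In DESeq2, 4 of the 36 passed the p cutoff, namely Fn1, Lama4, Thbs1 and Fbn1. Thbs1 (0.49) and Fbn1 (0.43) had higher means in SD mice and did not pass it in edgeR (unadjusted p 0.055 and 0.053). Over the 36 genes, 19 log2 fold changes were positive and 17 negative. Fn1, Lama4, Acan, Comp, Thbs1 and Fbn1 are named after their values were seen. The proteoglycans Bcan and Ncan, which the ADAMTS proteases cut, had log2 fold changes of 0.01 and -0.02. Of 31 shed membrane substrates, 2 (6.45%) passed the p cutoff and 1 (3.23%) was called higher, Kl (1.39), which is strongly made in the choroid plexus and measured 83.4, 23.1 and 93.7 CPM in CTR mice and 83.7, 214 and 227 CPM in SD mice. Of 12 other metalloproteinases and relatives, edgeR called Ecel1 (1.58) and Ace (1.10) higher and Mmel1 (-1.52) and Papln (-0.67) lower, or 33.3% beside 2.98% of all genes tested. In DESeq2, 2 of the 12 passed the p cutoff, and Ace (unadjusted p 0.11) and Papln (0.074) did not. Ecel1 measured 20.9, 3.62 and 12.9 CPM in SD mice 2, 5 and 6, and SD mouse 5 lay in the CTR range of 3.22 to 5.35 CPM. Mmel1 had only 4 to 23 counts per mouse, and Papln 25 to 48. Ace, which is also strongly made in the choroid plexus, was again highest in SD mice 5 and 6 (123 and 121 CPM) and lowest in CTR mouse 2 (16.1 CPM). It was lower in SD mouse 2 (45.9 CPM) than in CTR mouse 1 (51.5 CPM), unlike the choroid plexus sums, and the part of that tissue was not tested.

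The 9 genes that passed the p cutoff differed in how firmly they did so. Mmp2, Mmp15, Adamts1 and Adamts15 passed it under all 11 alternatives of normalization, filter, tool, block and left-out mouse. Adam12 passed under 9 of 11, Adamts18 and Adamts5 under 5 of 11 each, Adam23 under 4 of 11 and Adam5 under 2 of 10, as a filter on the mean count removed it in the other. None of the 9 changed sign under any of them. An exact two-sided permutation test with 3 mice against 3 cannot give a p below 0.1, so no such test was run on single genes.

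**Figure D5:**
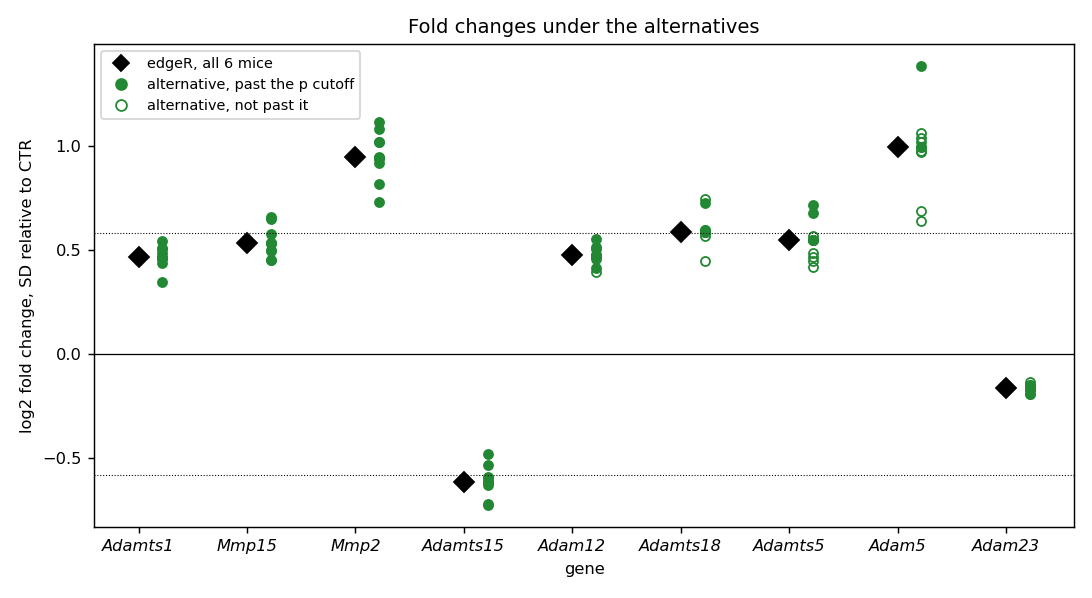
Log2 fold change (SD relative to CTR) of the 9 genes that passed the p cutoff, with all 6 mice in edgeR (diamonds) and under the alternatives (circles, filled where the p cutoff was passed), and dotted lines at the fold cutoff. The values of Mmp2 stay between 0.73 and 1.11 and those of Adamts15 between -0.72 and -0.48, all filled, while those of Adam5 range from 0.64 to 1.38 and are mostly open.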

How the data were processed

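The authors extracted RNA from hippocampi, selected polyadenylated RNA, trimmed the reads, mapped them to mm10 (HISAT2) and counted reads per gene (featureCounts), strand by strand and keeping reads that map to several places, so genes with near-identical copies are uncertain. Per the labels, SAMtools, Picard and DESeq2 were also used; the sources used here name neither their versions nor the gene annotation. The deposited table holds whole-number counts per gene and mouse, of which the least covered gene has 40 over the 6 mice. The same deposited table holds results of the authors' DESeq2 comparison that were not used, namely a signal value (mean normalised count), a log2 fold change with its standard error, a score (the test statistic), and the p-value and adjusted p-value.

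Each count column was matched to the mouse whose title it repeats. Counts were tested in R 4.3.3 with edgeR 4.0.16 (filterByExpr, which removed 78 genes, TMM, glmQLFit and glmQLFTest), SD against CTR without covariates, over 15345 genes, and p-values were adjusted by Benjamini-Hochberg over all of them. Adjusted p-values are from edgeR unless DESeq2 is named. The biological coefficient of variation common to all genes was 0.122. The standard error was taken as log2 fold change over the root of F. Levels per length are CPM per kb of merged exons of GENCODE vM21. The zinc motif was searched in the longest reading frame of each gene's transcripts, as 11 residues of which 4 are fixed. The edgeR script was tested on simulated data. Alternatives were DESeq2 1.42.0, DESeq2 size factors, no filter, a mean count of at least 50, the replicate number as a block, each mouse left out, and the p cutoff alone. Whether the mice of a group were littermates is not given, so p-values measure the spread between these 6 mice only.

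Values in every mouse are given for the genes past the p cutoff, the Timp and Mmp genes, the 10 of highest level per length and the 5 of largest change, as single values or ranges, and other genes by their fold change. Of the other lists, called genes or the 2 of highest mean are named, apart from some regulators, LGI partners and matrix substrates named after their values were seen. Ttr and Enpp2 lead their list by mean. The genes and lists were chosen with earlier results of these data known.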

Additional observations from a re-analysis of the deposited data

How the results depend on the processing

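The number of genes called higher, 3 with edgeR over all mice, was 1 with DESeq2, 1 with the replicate number as a block and 7 with the p cutoff alone, and it ranged from 1 to 3 when single mice were left out. The number called lower, 1, was 2 with the p cutoff alone and ranged from 1 to 2 when single mice were left out. Without SD mouse 5 or SD mouse 6, only Mmp2 was called higher. The other alternatives left both counts within a factor of 1.5. No gene of the 51 had an adjusted p under 0.05 under any alternative, edgeR or DESeq2. The block paired CTR and SD mice of numbers 2 and 5; the deviations of same-numbered mice correlated at 0.21 and 0.12 across genes, the labels state no pairing, and 12 genes of the whole table but none of the 51 reached an adjusted p under 0.05 with it. Of 551 comparisons of a single gene's fold change with an alternative, 493 stayed on the same side of the p cutoff without moving by more than 1 standard error where neither fit passed it, 29 lost the p cutoff, 13 gained it, and 16, not past it in either fit, moved by more than 1 standard error. The sign changed in 57 comparisons, in none of which a fit passed the p cutoff, and these involved 23 of the 42 genes not past it. Low counts limit Adam5 and the other scarce genes most, and 10 of the 51 genes fell under the mean count of 50.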
